A study of Mus musculus with 9 samples.

Results

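Fibroblast growth factors (FGFs), FGF receptors and the neighbouring gene Nudt6 were followed in picked cells of the crushed mouse retina that carried AAV-GFP, AAV-Olig2 or AAV-Olig3. The members were taken by gene name from the count table, 10 of its 50764 genes, namely the ligands Fgf1, Fgf2 and Fgf9, the intracellular FGF homologous factors Fgf12, Fgf13 and Fgf14, the receptors Fgfr1, Fgfr2 and Fgfr3, and Nudt6, whose exons overlap those of Fgf2. The set was chosen by family name after the levels and group differences of Fgf2 and its relatives in these same libraries were known, so the values below describe the members and the p-values are no independent support. Every library came from adult male mice of genotype WT, strain not given in the labels. The mice received 1.5 µL of an AAV2 vector into the vitreous, and per the labels both the injection and an optic nerve crush (ONC) are given as 14 days. All 3 groups therefore carried a virus and a crush, and differ, by the labels, in the vector: AAV-GFP in the control, AAV-Olig2 or AAV-Olig3 in the others, each with 3 libraries. Both factors belong to the basic helix-loop-helix family and act in neural development. Retinal cells were first bound to beads that recognise CD90.2 (Thy1), the green ones were then collected by hand under a microscope, and cDNA of their poly-A RNA went through 20 PCR cycles. The labels do not name the promoter in the vectors, and each library pooled 10 to 20 cells, with ranges that differ between parts of the labels.

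Secreted FGFs bind receptor tyrosine kinases of the Fgfr family together with heparan sulfate, and the activated receptor signals through RAS and MAP kinases, which induce immediate early genes and feedback inhibitors such as the Sprouty proteins. In the retina Fgf2 is known as a survival factor of photoreceptors and ganglion cells and is made by Müller glia and by neurons under stress. The homologous factors Fgf12, Fgf13 and Fgf14 are not secreted and bind voltage-gated sodium channels. Nudt6 encodes a nudix hydrolase and is known as the antisense gene of Fgf2.

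Fgf2, Nudt6 and Fgf9 were the 3 members whose libraries were ordered by group without overlap, so their promoters are printed, from 250 bases before to 50 bases after the RefSeq start (GRCm38.p6), read 5′ to 3′ along the gene. Capitals mark the core that basic helix-loop-helix factors recognise (E-box, CANNTG, which reads the same way on both strands) and the GC box (GGGCGG or its reverse complement CCGCCC). Neighbouring GC boxes may overlap.
Fgf2, chr3:37348403-37348702, plus strand: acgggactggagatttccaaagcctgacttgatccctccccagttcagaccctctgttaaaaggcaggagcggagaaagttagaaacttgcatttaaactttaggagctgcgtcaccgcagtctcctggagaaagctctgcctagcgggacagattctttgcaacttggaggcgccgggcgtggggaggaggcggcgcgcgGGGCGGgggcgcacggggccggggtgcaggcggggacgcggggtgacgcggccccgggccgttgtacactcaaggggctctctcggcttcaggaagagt
Nudt6, chr3:37419547-37419846, minus strand: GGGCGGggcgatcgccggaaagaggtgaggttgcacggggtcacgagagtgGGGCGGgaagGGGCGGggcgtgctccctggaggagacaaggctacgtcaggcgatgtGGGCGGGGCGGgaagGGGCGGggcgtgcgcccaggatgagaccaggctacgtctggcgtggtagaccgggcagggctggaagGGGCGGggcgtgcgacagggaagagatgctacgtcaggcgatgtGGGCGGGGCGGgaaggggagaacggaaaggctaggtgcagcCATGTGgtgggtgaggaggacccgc
Fgf9, chr14:58072436-58072735, plus strand: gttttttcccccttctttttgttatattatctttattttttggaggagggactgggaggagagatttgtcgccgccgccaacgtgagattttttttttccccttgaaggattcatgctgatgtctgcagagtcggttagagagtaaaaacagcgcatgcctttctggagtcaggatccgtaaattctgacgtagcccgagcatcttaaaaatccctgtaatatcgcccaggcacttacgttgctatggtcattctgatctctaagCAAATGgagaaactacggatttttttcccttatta
The Fgf2 window held no E-box and 1 GC box. The Nudt6 window held 1 E-box (CATGTG) and 9 GC boxes. The Fgf9 window held 1 E-box (CAAATG) and no GC box. Of all 32851 promoter windows of this length, 72.3% held an E-box and 35.7% a GC box. GC content was 62.7% in the Fgf2 window, 70.3% in the Nudt6 window and 42.7% in the Fgf9 window. These letters describe the windows, and binding was not measured. In GENCODE each of these 3 genes also has a transcript that starts upstream of the printed window. RefSeq windows were found for 8 of the 10 members, 15 in all, and those of Fgf1 and Fgfr1 are missing.

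Library totals ran from 5355691 to 6979851 counts, so a count of 3, taken as the floor below which a gene counts as not detected, was 0.430 to 0.560 counts per 1000000 counts of the library (CPM). Counting any gene with a read as detected, without that floor, Olig3 libraries 1 and 3 detected 16188 and 14434 genes, against 18184 to 21338 in the other 7. Olig2 libraries 2 (11.7%) and 3 (6.15%) and Olig3 library 2 (8.54%) gave the nuclear RNA Malat1 a larger share of counts than the rest did (2.65% to 4.14%). The delivered genes followed the labels: Olig2 had 114, 97 and 21 counts in the Olig2 libraries, 6, 4 and 0 in the Olig3 libraries and 0 in the GFP libraries, and Olig3 had 172, 113 and 597 counts in the Olig3 libraries, 0, 5 and 7 in the Olig2 libraries and 13, 0 and 40 in the GFP libraries. Of the 15 ganglion cell markers Pou4f2, a defining transcription factor, had counts in GFP library 2 (26), Olig2 library 2 (14) and Olig3 library 2 (3) and 0 in the other 6. The whole list did not follow Pou4f2 within the GFP group. Its summed level was 2256, 988 and 1481 CPM with GFP, 243, 452 and 218 CPM with Olig2, and 216, 336 and 123 CPM with Olig3. Rod markers took more of each library than ganglion cell markers did, with summed levels of 50072 CPM or more for 15 genes. In libraries of pooled cells, fewer cells of a type and less RNA per cell cannot be told apart. Whether each library had its own animal is not in the labels, so p-values rest on the spread of the 9 libraries, part of which may be technical.

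Levels of the members are given as CPM scaled by TMM factors, for GFP, Olig2 and Olig3 libraries 1 to 3 in that order, and changes as edgeR log2 differences with their standard error (SE) and a p adjusted over 15609 genes (quasi-likelihood test, Benjamini-Hochberg). Passing means an adjusted p under 0.05. Fgfr2 and Fgfr3 did not pass the filter on low counts, so 8 of the 10 members were tested. With Olig3 against GFP, 1 of the 8 passed, Fgf2, which was lower. The same call was made for 0.205% of all tested genes, and for 0.109% as lower. With Olig2 against GFP 0 of 8 passed by edgeR (0.0513% of all genes), and by DESeq2 and limma-voom likewise 0. Unadjusted p was under 0.05 for 2 members, Fgf2 and Nudt6, against 4.68% of all genes. With Olig3 against Olig2 0 of 8 passed by edgeR (0.0384% of all genes), DESeq2 or limma-voom. There 2 members, again Fgf2 and Nudt6, had an unadjusted p under 0.05, against 5.12% of all genes. In Olig3 against GFP that count was 3 of 8, with Fgf9 as the third, against 12.1% of all genes. DESeq2 and limma-voom each called Fgf2 and Nudt6 there, against 502 and 78 of all 15609 genes. Both comparisons against GFP share the same 3 GFP libraries.

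**Figure D1:**
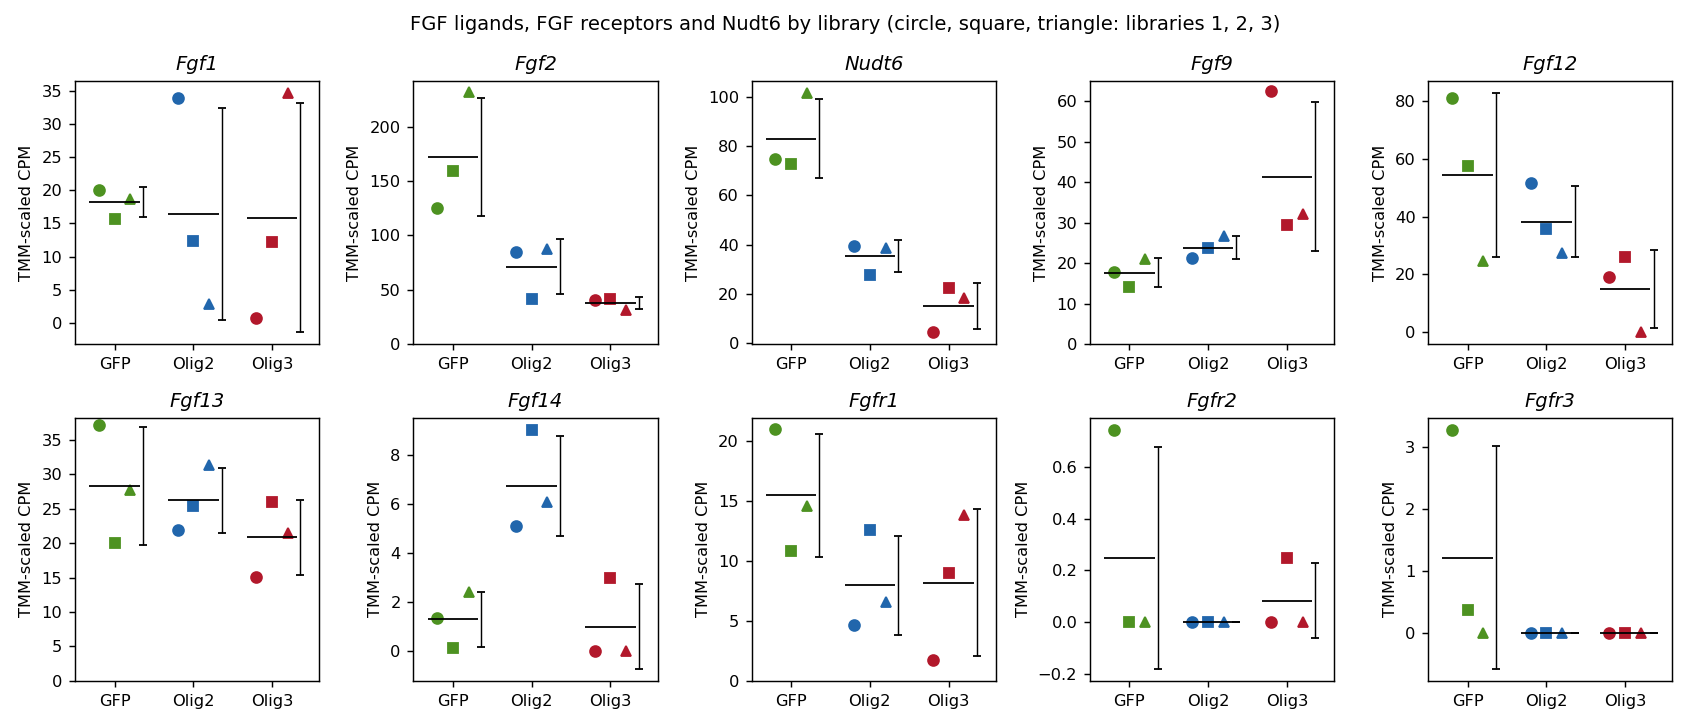
Level of each FGF member and Nudt6 in the 9 libraries (TMM-scaled CPM on a linear axis), with points for libraries, horizontal lines for group means and bars for the SD. Fgf2 and Nudt6 step down from GFP to Olig2 to Olig3, Fgf9 steps up, and Fgf1 spreads from 0.734 to 34.6 CPM within the Olig3 group.

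Fgf2, the basic FGF, stepped down from GFP to Olig2 to Olig3. Its levels were 126, 159 and 232 CPM with GFP, 84.9, 42.0 and 87.2 CPM with Olig2, and 40.5, 41.1 and 31.7 CPM with Olig3. Every GFP library lay above every Olig2 library, and every Olig2 library above every Olig3 library, although the lowest Olig2 library (42.0 CPM) and the highest Olig3 library (41.1 CPM) nearly touched. The group means were 172 ± 54.5, 71.4 ± 25.5 and 37.8 ± 5.27 CPM (SD, n = 3 each). Fgf2 was 2.41-fold lower with Olig2 than with GFP, a log2 change of -1.27 (SE 0.32) that did not pass (edgeR adjusted p = 0.451). It was 4.56-fold lower with Olig3 than with GFP, a log2 change of -2.19 (SE 0.33) that passed (edgeR adjusted p = 0.0363). Between the factors Fgf2 was 1.89-fold lower with Olig3 (log2 -0.92, SE 0.33, edgeR adjusted p = 0.918). The Olig3 call was lost in 8 of 9 fits that left out 1 library each (edgeR adjusted p = 0.0621 to 0.144) and was kept without Olig3 library 2 (0.0226), while the log2 change stayed between -2.37 and -1.91. It was also lost without the few-gene Olig3 libraries 1 and 3 (0.332) and without the 3 Malat1-rich libraries (0.0710).

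Fgf2 lies on chromosome 3 (37348346 to 37410108, plus strand, GRCm38), and its upstream neighbour on the minus strand is the long noncoding RNA Fgf2os (37335332 to 37349740), whose exons do not overlap those of Fgf2. Fgf2os had 22.9, 39.6 and 60.6 CPM with GFP, 5.68, 17.6 and 15.4 CPM with Olig2, and 32.4, 5.24 and 39.3 CPM with Olig3. Its GFP libraries lay above its Olig2 libraries, and the Olig3 libraries overlapped both groups. The log2 change of Fgf2os was -1.68 (SE 0.70) with Olig2 and -0.67 (SE 0.68) with Olig3 against GFP (edgeR adjusted p = 0.978 and 0.739). Olig3 libraries 1 and 3 held 0.801 and 1.24 Fgf2os counts per Fgf2 count, and the other 7 libraries held 0.0669 to 0.418. A clone transcript on the strand of Fgf2, Gm43439, shares 255 bp of exon with it and had at most 2 counts in any library.

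Nudt6, the antisense neighbour, showed the same order as Fgf2. Its levels were 74.6, 72.8 and 101 CPM with GFP, 39.5, 27.8 and 38.8 CPM with Olig2, and 4.55, 22.4 and 18.6 CPM with Olig3. The 3 groups did not overlap, and Olig3 library 1 was the lowest of all. Group means were 83.0 ± 16.1, 35.3 ± 6.56 and 15.2 ± 9.41 CPM (SD, n = 3 each). Nudt6 was 2.35-fold lower with Olig2 than with GFP (log2 -1.23, SE 0.47, edgeR adjusted p = 0.895). It was 5.46-fold lower with Olig3 than with GFP, a log2 change of -2.46 (SE 0.50) that did not pass (edgeR adjusted p = 0.0799). Without Olig3 library 2 the change passed (edgeR adjusted p = 0.0295), and over the fits that left out 1 library each it ranged from -2.84 to -2.02. Between the factors Nudt6 was 2.33-fold lower with Olig3 (log2 -1.23, SE 0.48, edgeR adjusted p = 0.933), and the log2 change was -0.79 without Olig3 library 1.

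The exons of Fgf2 and Nudt6 (chromosome 3, 37404910 to 37420211, minus strand) overlap over 640 bp in 2 stretches between 37404910 and 37409562. These bases all lie in untranslated sequence of Fgf2 and make up 9.44% of its exons. They make up 38.2% of the Nudt6 exons and include 450 bp of its coding sequence. No source used here gives the strand setting of the counting, so reads from the shared bases cannot be told apart, and neither can those from a further 316 bp that Nudt6 shares with the untranslated sequence of Spata5 at its other end. Gm37376, which lies with 100% of its exon bases inside Malat1 on the opposite strand, had 0.941 to 1.02 times the Malat1 counts in every library. Spata5 did not follow the order of Fgf2 and Nudt6, at 30.7, 22.7 and 31.8 CPM with GFP, 15.9, 9.50 and 29.3 CPM with Olig2 and 31.7, 16.5 and 6.87 CPM with Olig3. Its log2 change against GFP was -0.64 (SE 0.61) with Olig2 and -0.63 (SE 0.61) with Olig3 (edgeR adjusted p = 1.00 and 0.725).

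The counts of Nudt6 per count of Fgf2 were 0.594, 0.458 and 0.437 in the GFP libraries, 0.465, 0.661 and 0.445 in the Olig2 libraries, and 0.112, 0.545 and 0.585 in the Olig3 libraries. In 8 of 9 libraries the ratio lay between 0.437 and 0.661, and Olig3 library 1 stood below them at 31 Nudt6 counts against 276 Fgf2 counts. The exact 95% interval of that ratio, 0.0749 to 0.163, covers counting error only. Counts pooled over a group gave 0.478 with GFP, 0.485 with Olig2 and 0.377 with Olig3, and 0.568 with Olig3 when its library 1 was left out.

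**Figure D2:**
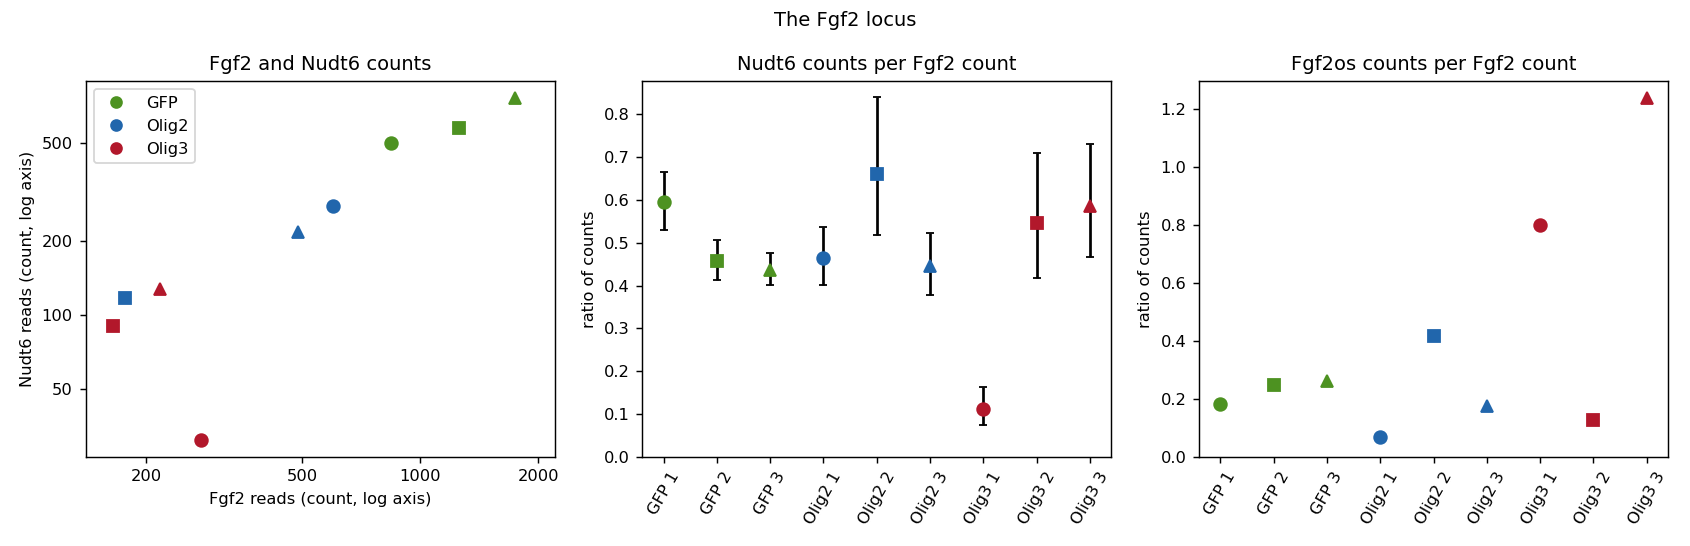
Nudt6 against Fgf2 counts of the 9 libraries on log axes (left), Nudt6 counts per Fgf2 count with exact 95% intervals (middle) and Fgf2os counts per Fgf2 count (right), coloured by group. For Nudt6, 8 of 9 ratios sit between 0.437 and 0.661 and Olig3 library 1 lies at 0.112, while for Fgf2os the ratios run from 0.0669 to 1.24.

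Marker sums are given as CPM without the TMM factors used for the members. On that scale some of 14 cell type marker lists stood apart between groups. Among them were those of Müller glia, a known source of Fgf2, and of astrocytes. The amacrine, horizontal, microglia, oligodendrocyte, endothelial, pericyte and fibroblast, and pigment epithelium lists had sums that overlapped between all groups. For amacrine cells these were 337 to 947 CPM with GFP, 552 to 799 CPM with Olig2 and 358 to 910 CPM with Olig3. The summed level of 13 Müller glia markers was 4870 to 11024 CPM in the GFP libraries, 3670 to 4809 CPM in the Olig2 libraries and 1102 to 4348 CPM in the Olig3 libraries, and no marker was at 0 throughout a group. The lowest GFP library (4870 CPM, TMM factor 1.15) and the highest Olig2 library (4809 CPM, TMM factor 0.776) nearly touched. Division by these factors would put that Olig2 library above that GFP library. With Olig2 against GFP 8 of the 13 markers were lower and 5 higher, with a median difference in TMM-scaled log2 CPM of -0.06. With Olig3 against GFP 11 were lower and 2 higher, with a median of -1.06. There edgeR called 1 of the 13 lower, against 17 of all 15609 tested genes. The 4 astrocyte markers summed to 133 to 235 CPM with GFP, 12.1 to 25.4 CPM with Olig2 and 1.86 to 28.2 CPM with Olig3, with Pax2 at 0 in all Olig2 libraries. Gfap, shared by astrocytes and reactive Müller glia, had 835, 619 and 963 counts with GFP, 51, 82 and 36 counts with Olig2, and 0, 109 and 0 counts with Olig3. The 15 ganglion cell markers summed to 988 to 2256 CPM with GFP, 218 to 452 CPM with Olig2 and 123 to 336 CPM with Olig3, with Pou4f3 at 0 in all Olig2 libraries. The 15 rod markers went the other way between GFP and Olig2, at 50072 to 76492 CPM with GFP, 82927 to 142730 CPM with Olig2 and 65167 to 155839 CPM with Olig3. In mean log2 CPM all 15 were higher with each factor than with GFP. With each factor 12 of them were higher at an unadjusted edgeR p under 0.05. Over all tested genes 407 were higher at that p with Olig2 and 899 with Olig3. Of the rod markers edgeR called 0 with Olig2 and 1, as higher, with Olig3. The 12 bipolar cell markers summed to 805 to 897 CPM with GFP, 1013 to 1795 CPM with Olig2 and 995 to 1750 CPM with Olig3. Of these 12, edgeR called 1 higher with Olig2 and 3 higher with Olig3 than with GFP. Over all 15609 tested genes it called 6 and 15 higher. The 10 cone markers summed to 2391 to 3449 CPM with GFP, 1912 to 2893 CPM with Olig2 and 3063 to 8775 CPM with Olig3. With Olig3 against GFP 0 of these 10 were called and 8 were higher at an unadjusted edgeR p under 0.05. Over all 15609 tested genes 899 were higher at that p. The 9 lens markers in the table summed to 93.8 to 3862 CPM with GFP, 2.39 to 5.61 CPM with Olig2 and 0.508 to 343 CPM with Olig3, with Crybb1 at 0 in all Olig2 libraries. The part of these cell types in the levels of Fgf2, Nudt6 and the other members was not tested.

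**Figure D3:**
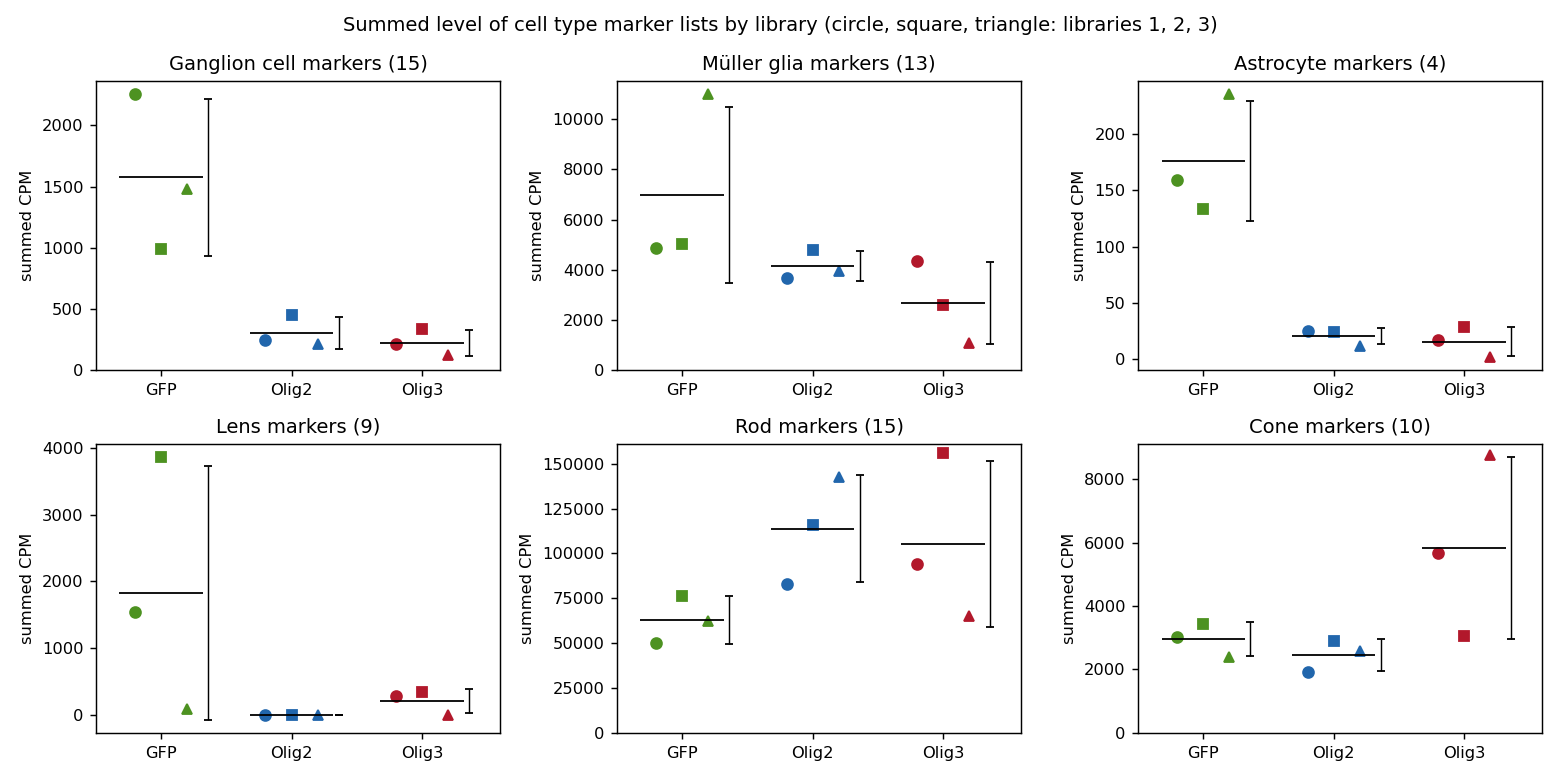
Summed CPM of cell type marker lists in each library (linear axes, without TMM factors). Points are libraries, horizontal lines are group means and bars are the SD. The GFP libraries lie above both factor groups for ganglion cell and astrocyte markers. For Müller glia markers they lie only just above the Olig2 libraries, at 4870 against 4809 CPM at the nearest. TMM scaling would not keep that order.

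Fgf9, a secreted ligand made by neurons, ran the other way. Its levels were 17.7, 14.0 and 21.1 CPM with GFP, 21.2, 23.7 and 26.6 CPM with Olig2, and 62.5, 29.4 and 32.1 CPM with Olig3. The groups were ordered upwards without overlap, but the highest GFP library (21.1 CPM) and the lowest Olig2 library (21.2 CPM) nearly touched, and Olig3 library 1 stood above the rest. Mean levels were 17.6 ± 3.56, 23.8 ± 2.74 and 41.4 ± 18.4 CPM (SD, n = 3 each). Fgf9 was 2.35-fold higher with Olig3 than with GFP (log2 1.23, SE 0.42, edgeR adjusted p = 0.294). The log2 difference was 0.43 (SE 0.42) with Olig2 against GFP and 0.80 (SE 0.42) with Olig3 against Olig2 (edgeR adjusted p = 1.00 and 0.933). Without Olig3 library 1 the difference of Olig3 from GFP had the lowest value of the 9 fits that left out 1 library each, 0.81, and that of Olig3 from Olig2 was 0.37. Fgf9 lies on chromosome 14 (58070547 to 58112720, plus strand).

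Fgf1, the acidic FGF that binds all receptors of the family, had even levels in the GFP libraries only. They were 20.1, 15.7 and 18.8 CPM with GFP, 33.9, 12.3 and 2.86 CPM with Olig2, and 0.734, 12.2 and 34.6 CPM with Olig3. Both factor groups ran from below the lowest GFP library to above the highest, so the groups overlapped throughout. Mean levels were 18.2 ± 2.27, 16.4 ± 15.9 and 15.9 ± 17.2 CPM (SD, n = 3 each). The log2 change was -0.15 with Olig2 and -0.20 with Olig3 against GFP (SE 1.05 each, edgeR adjusted p = 1.00 and 0.961). Leaving out 1 library at a time moved these between -1.29 and 0.35 and between -1.51 and 0.37, so no direction held.

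The homologous factors Fgf12, Fgf13 and Fgf14 bind the tails of sodium channels at the axon start. Fgf12 (chromosome 16, 28160098 to 28753068, minus strand) had 81.2, 57.5 and 24.7 CPM with GFP, 51.6, 35.9 and 27.3 CPM with Olig2, and 19.1, 25.9 and 0 CPM with Olig3. The Olig3 libraries lay below all Olig2 libraries, while the lowest GFP library overlapped both factor groups. No count was seen in Olig3 library 3, whose floor was 0.508 CPM. Its log2 change was -1.87 (SE 1.02) with Olig3 and -0.51 (SE 0.99) with Olig2 against GFP (edgeR adjusted p = 0.499 and 1.00), and -1.36 (SE 1.01) between the factors (edgeR adjusted p = 0.934). With 1 library left out the change with Olig3 against GFP ranged from -2.51 to -1.27, that with Olig2 from -0.85 to -0.10 and the difference between the factors from -2.004 to -0.770. The change with Olig3 was -4.15 by limma-voom, and it passed without the filter on low counts (edgeR adjusted p = 0.00794).

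Fgf13 (chromosome X, 59062145 to 59568071, minus strand) had overlapping levels in all groups. Its levels were 37.1, 20.0 and 27.7 CPM with GFP, 21.9, 25.4 and 31.3 CPM with Olig2, and 15.1, 25.9 and 21.5 CPM with Olig3. The highest library was GFP library 1 and the lowest Olig3 library 1. The log2 change was -0.11 (SE 0.42) with Olig2 and -0.44 (SE 0.43) with Olig3 against GFP (edgeR adjusted p = 1.00 and 0.725).

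Fgf14 (chromosome 14, 123977907 to 124677127, minus strand) was low, with 9, 1 and 18 counts with GFP, 36, 38 and 34 counts with Olig2, and 0, 12 and 0 counts with Olig3. Fgf14 was kept for testing with the counts of the Olig2 libraries, and the fit of only Olig3 and GFP left it out, so its higher level with Olig2 is in part fixed by the filter. As levels these were 1.34, 0.126 and 2.39 CPM, 5.11, 9.02 and 6.08 CPM, and 0, 2.99 and 0 CPM. The Olig2 libraries lay above all others. Fgf14 was 5.24-fold higher with Olig2 than with GFP (log2 2.37, SE 1.78, edgeR adjusted p = 1.00) and 6.76-fold lower with Olig3 than with Olig2 (log2 -2.79, SE 1.83, edgeR adjusted p = 0.934). Without Olig3 library 2 the latter log2 change was -8.48. Against GFP the log2 change with Olig3 was -0.42 (SE 1.74, edgeR adjusted p = 0.948), and it ranged from -6.10 to 0.39 when 1 library was left out. The antisense gene Gm28932, which shares 220 bp of exon with Fgf14, had 2, 1 and 0 counts with GFP, 10, 11 and 10 counts with Olig2, and 0, 1 and 0 counts with Olig3. The shared bases are 61.6% of the Gm28932 exons and 5.26% of the Fgf14 exons, and reads within them cannot be told apart.

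Of the receptors, Fgfr1 (chromosome 8, 25513654 to 25575718, plus strand) was counted in every library. Its levels were 21.0, 10.9 and 14.6 CPM with GFP, 4.69, 12.6 and 6.61 CPM with Olig2, and 1.76, 8.98 and 13.9 CPM with Olig3. The GFP libraries overlapped both factor groups. Fgfr1 was 1.95-fold lower with Olig2 than with GFP (log2 -0.96, SE 0.84, edgeR adjusted p = 1.00), and its log2 change with Olig3 was -0.92 (SE 0.84, edgeR adjusted p = 0.707). With 1 library left out these changes ranged from -1.45 to -0.68 and from -1.54 to -0.43. The log2 difference between the factors was 0.05 (SE 0.83, edgeR adjusted p = 0.995) and took either sign when 1 library was left out. The antisense gene Gm16159, which shares 164 bp of Fgfr1 coding exon, had 3, 6 and 8 counts with GFP, 0 with Olig2, and 0, 1 and 0 with Olig3.

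Fgfr3 and Fgfr2 were seen in few libraries. Fgfr3 (chromosome 5, 33721674 to 33737068, plus strand) had 22, 3 and 0 counts with GFP and 0 counts in all 6 factor libraries. Pooled over the GFP group this was 1.31 CPM, at least 8.11-fold higher than a floor of 3 counts over the Olig2 group and at least 7.71-fold higher than that floor over the Olig3 group. GFP library 1 alone gave 22 of these counts, and without it 3 remained, which is the floor itself. Fgfr2 (chromosome 7, 130162451 to 133123350, minus strand) had 5 counts in GFP library 1, 1 count in Olig3 library 2 and 0 elsewhere. Fgfr2 shares 314 bp of untranslated exon with Ctbp2 on the same strand, which had 383 to 985 counts per library. Fgfr3 shares 998 bp, 13.9% of its exons, with G630022F23Rik on the opposite strand, which had at most 1 count. Reads within these shared bases cannot be told apart. The longest stretch shared between receptor transcripts was 26 bases, between Fgfr1 and Fgfr3, and between Fgfr1 and Fgfr2 it was 20 bases.

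**Figure D4:**
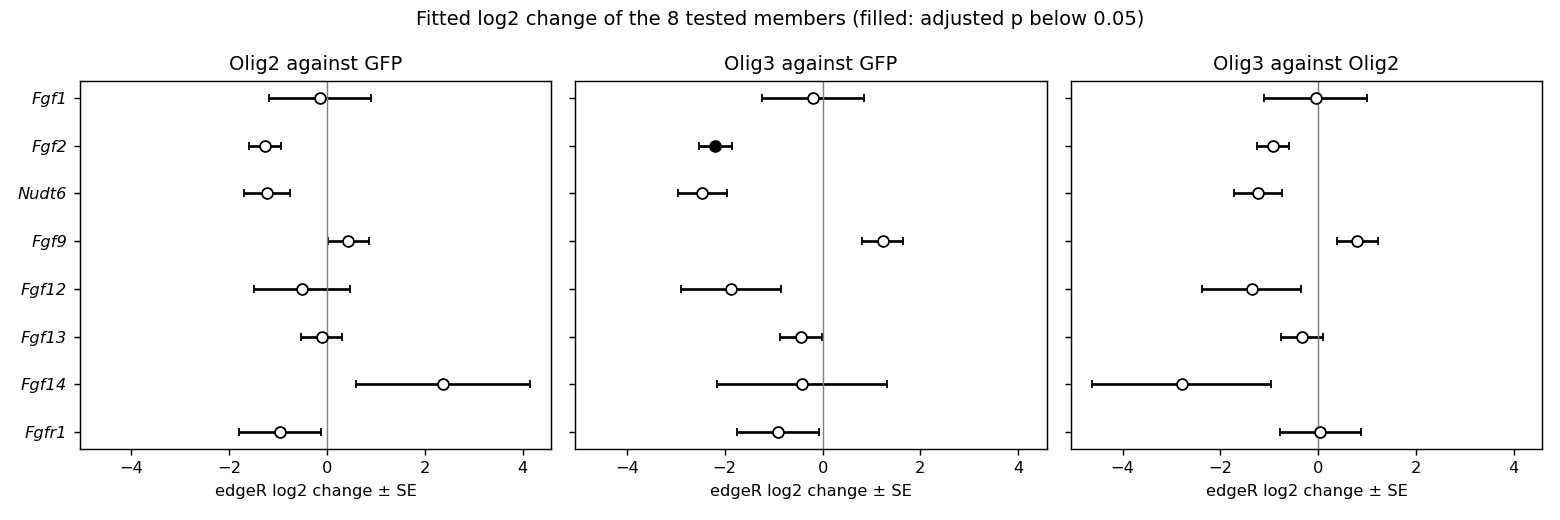
The edgeR log2 change with its SE for the 8 tested members in the 3 comparisons, with filled points for an adjusted p under 0.05. Only Fgf2 with Olig3 against GFP is filled, at -2.19, and Fgf14 has the widest bars, with an SE of 1.74 to 1.83.

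Set side by side, the libraries of 2 groups did not overlap for 4 of the 8 members with Olig2 against GFP: Fgf2 and Nudt6 were lower (8.30% of all genes) and Fgf9 and Fgf14 higher (8.52%), of which Fgf14 is in part fixed by the filter. With Olig3 against GFP this held for 3 members, Fgf2 and Nudt6 as lower (10.0% of all genes) and Fgf9 as higher (7.23%). With Olig3 against Olig2 it held for 5, with Fgf2, Nudt6, Fgf12 and Fgf14 lower (8.64%) and Fgf9 higher (4.41%). Here too Fgf14 is in part fixed by the filter. The order GFP over Olig2 over Olig3 without overlap, seen for Fgf2 and Nudt6, was found for 0.641% of all genes, and the reverse order, seen for Fgf9, for 0.468%. Fgf2 and Nudt6 share exon bases in which reads cannot be told apart. In these counts, and in those of members that passed, Fgf2 and Nudt6 are therefore not fully separate. The median difference in mean log2 CPM over the 8 members was -0.56 with Olig2 and -1.24 with Olig3 against GFP and -0.69 between the factors. Over all tested genes these medians were 0.06, -0.18 and -0.22.

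Per kb of exon, the scale on which genes can be compared, Nudt6 was the highest member in the GFP libraries with a mean of 49.5 CPM per kb, followed by Fgf2 at 25.4, Fgf12 at 8.78, Fgf13 at 7.03, Fgf9 at 3.79, Fgf1 at 3.33, Fgfr1 at 1.57 and Fgf14 at 0.308 CPM per kb. In that order Fgf12 overlapped Fgf13 and Fgf9 between libraries and Fgf9 overlapped Fgf1, while Nudt6 and Fgf2 stood apart. With Olig2 Nudt6 (21.1 CPM per kb) and Fgf2 (10.5 CPM per kb) still led by mean. Between the Olig2 libraries Nudt6 stood apart, while Fgf2 overlapped Fgf12 and Fgf13. With Olig3 Nudt6 at 9.05 and Fgf9 at 8.90 CPM per kb came first, ahead of Fgf2 at 5.57 and Fgf13 at 5.19 CPM per kb. Within the Olig3 group the libraries of these 4 genes vary by more than the steps between neighbours, so their order there is not resolved. The lengths are those of all annotated exons of a gene, of which 1 transcript may use part. Of the Nudt6 exons 38.2% are shared with Fgf2 and 18.8% with Spata5. Reads there cannot be told apart, which limits the place of Nudt6 in these orders.

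Among 15608 other tested genes, the 5 named genes whose log2 CPM over the 9 libraries correlated most with Fgf2 were Capzb, a capping protein of actin filaments (Pearson's r 0.963), Ankrd29 (0.958), Tmem101 (0.958), Slc50a1, a sugar transporter (0.949), and Tubb6, a tubulin (0.948). Nudt6 had r 0.833 and rank 149. The other members had r 0.541 (Fgf12), 0.388 (Fgf13), 0.342 (Fgfr1), 0.227 (Fgf1), 0.125 (Fgf14) and -0.694 (Fgf9). Among pairs of members the most negative value was that of Nudt6 and Fgf9, -0.927. These values describe 9 libraries that fall into 3 groups and differ in depth and detected genes, so genes that differ between the groups correlate.

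Other genes of the pathway were followed in 8 lists of 122 genes, of which 96 were tested. By edgeR 0 of 96 passed in any of the 3 comparisons. Unadjusted p was under 0.05 for 4 with Olig2 against GFP (4.17% of the 96, against 4.68% of all genes), 19 with Olig3 against GFP (19.8% against 12.1%) and 8 between the factors (8.33% against 5.12%). Of the 19, 14 were lower and 5 higher with Olig3. DESeq2 called Egr1, Flrt3 and Fos lower with Olig3 than with GFP, 3 of 96, against 502 of all 15609 genes. It called Fos lower with Olig3 than with Olig2, 1 of 96, against 82 of all genes. By limma-voom 0 of 96 passed in each comparison.

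Of 16 further ligands 6 had no count in any library and 3 were tested. Fgf18, a ligand of Fgfr2 and Fgfr3, had 0 counts in the GFP libraries, 15, 11 and 10 counts with Olig2, and 0, 3 and 36 counts with Olig3 (edgeR adjusted p = 0.797 and 0.305 against GFP). Fgf18 was kept for testing through the factor libraries only, so its higher level there is in part fixed by the filter. Fgf11, the remaining homologous factor, was lower in every Olig2 library than in every GFP library, at 15.7 ± 2.64 against 24.4 ± 2.55 CPM (SD, n = 3 each, edgeR adjusted p = 1.00), and had 31.4 ± 18.0 CPM with Olig3. Of 18 receptor-like genes and coreceptors 13 were tested, with a median difference in log2 CPM of 0.01 with Olig2 and -1.18 with Olig3 against GFP. Flrt3, a membrane protein that binds FGF receptors, had 87.9, 20.3 and 32.2 CPM with GFP, 18.6, 10.9 and 10.4 CPM with Olig2, and 15.1, 11.0 and 11.1 CPM with Olig3. Its GFP libraries lay above all others, and its log2 change was -1.81 with Olig2 and -1.91 with Olig3 (SE 0.58 each, edgeR adjusted p = 0.684 and 0.246). Fgfbp3, a carrier that releases FGFs from the matrix, had 31.8 ± 5.66 CPM with GFP, 11.4 ± 1.47 with Olig2 and 13.1 ± 6.19 CPM with Olig3 (SD, n = 3 each, edgeR adjusted p = 0.773 and 0.350 against GFP).

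Of the 13 tested genes of heparan sulfate synthesis, 1 with each factor against GFP had an unadjusted p under 0.05, both lower. Ndst1, a sulfotransferase, had 22.7 ± 1.82 CPM with GFP, 8.35 ± 2.07 with Olig2 and 19.9 ± 7.66 CPM with Olig3 (SD, n = 3 each, edgeR adjusted p = 0.859 and 0.914 against GFP). All 22 adaptors and kinases were tested, with medians of 0.01 and 0.14 against GFP. Of the 10 tested feedback inhibitors, Cbl, a ubiquitin ligase of receptors, had 25.1 ± 7.57 CPM with GFP, 27.3 ± 5.13 with Olig2 and 10.5 ± 2.40 CPM with Olig3 (SD, n = 3 each, edgeR adjusted p = 1.00 and 0.321 against GFP). The medians of the 9 sodium channel genes, partners of the homologous factors, were -0.34 and -0.28 against GFP. The medians of the 19 other nudix genes were -0.01 and -0.69, and 1 of them, Nudt18, had an unadjusted p under 0.05 with Olig3 (log2 -1.11, SE 0.43, edgeR adjusted p = 0.340).

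Immediate early genes and other targets of the MAP kinase arm had the lowest medians against GFP among the 8 pathway lists. Of 7 tested targets 7 were below GFP with Olig3 and 7 below Olig2, with medians of -2.25 and -2.06 log2 CPM, and 4 and 2 of them had an unadjusted p under 0.05. Over all 15609 tested genes 9089 were below GFP and 9745 below Olig2, and 12.1% and 5.12% had an unadjusted p under 0.05. With Olig2 against GFP the median was -0.53, and 0 of 7 had an unadjusted p under 0.05. Fos had 60.2, 76.6 and 157 CPM with GFP, 43.7, 126 and 93.5 CPM with Olig2, and 15.8, 15.5 and 27.9 CPM with Olig3. Every Olig3 library lay below every library of the other groups, and the GFP and Olig2 libraries overlapped. The log2 change of Fos with Olig3 was -2.31 against GFP and -2.15 against Olig2 (SE 0.47 each, edgeR adjusted p = 0.0839 and 0.439). Egr1 had 62.2 ± 10.3 CPM with GFP, 31.2 ± 13.8 with Olig2 and 5.66 ± 6.98 CPM with Olig3 (SD, n = 3 each), a log2 change of -3.51 with Olig3 against GFP (SE 1.01, edgeR adjusted p = 0.218). Ier2 had 68.7 ± 14.7, 47.0 ± 4.71 and 28.8 ± 13.9 CPM in the same order (SD, n = 3 each, edgeR adjusted p = 0.261 with Olig3 against GFP). These genes also answer many signals other than FGF. Olig3 libraries 1 and 3, which detected the fewest genes, held 3.52 and 0 CPM of Egr1, against 13.5 CPM in Olig3 library 2, and the part of detection in these levels was not tested.

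**Figure D5:**
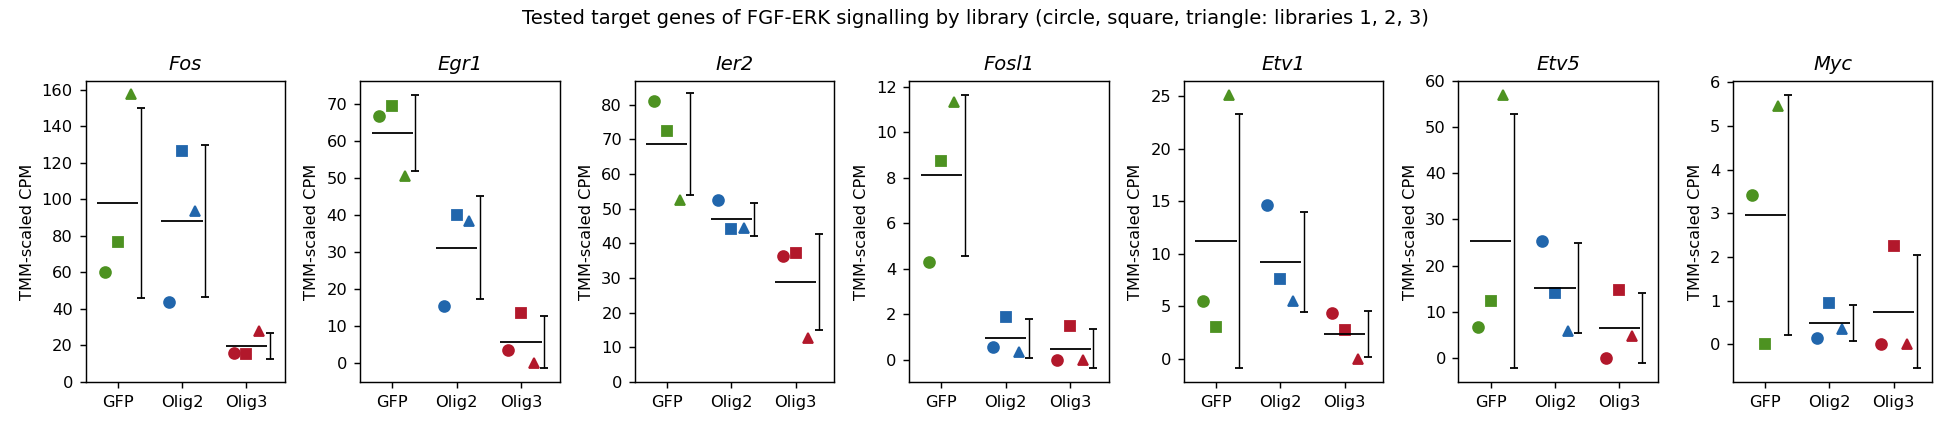
Levels of MAP kinase target genes in the 9 libraries (TMM-scaled CPM), with points for libraries, horizontal lines for group means and bars for the SD. For Fos the 3 Olig3 libraries, at 15.5 to 27.9 CPM, lie below the GFP and Olig2 libraries.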

How the data were processed

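Poly-A RNA of picked cells was measured in 9 libraries, 3 with each vector (GFP, Olig2, Olig3). The authors deposited raw read counts for each gene in 1 table. Per the submitters' processing notes, FastQC, HISAT2 and HTSeq were used on mm10. Their versions, read filters and strandedness were not given in the sources used here. Of 50764 identifiers 50712 matched GENCODE release M21, which gave coordinates (1-based) and exon overlaps. Totals ran from 5355691 to 6979851 counts. Without molecular identifiers, intervals and floors (3 counts) cover counting error only.

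The counts were tested with the quasi-likelihood F test of edgeR 4.0.16 (R 4.3.3), after filterByExpr (15609 genes kept) and TMM scaling, with 1 model for all 3 groups (6 residual degrees of freedom) and Benjamini-Hochberg adjustment, at a threshold of 0.05. The test was run on simulated counts with changes planted in Olig2 against GFP, larger than the main fitted changes of the members. That run does not show how well changes of the members' size are found. Folds are ratios of mean TMM-scaled CPM, and list medians use TMM-scaled log2 CPM with a prior count of 2. Marker sums use CPM without TMM factors. Libraries of the same group differed by more than counting noise (chi-square of at least 29.5 per degree of freedom) and were kept apart. Alternatives were other scaling factors, no filter, a filter at 10 CPM in 3 libraries, DESeq2 1.42.0, limma-voom (limma 3.58.1), fits of only the pair compared, the replicate number as a block and leaving out each library. Fits without 3 Malat1-rich libraries and without 2 few-gene libraries were added after seeing the data. Named were all members, the 3 genes with the smallest unadjusted p of each pathway list (not all are printed), the 5 genes most correlated with Fgf2, and genes whose exons overlap a member. The members and lists were chosen with earlier results of these data known.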

Additional observations from a re-analysis of the deposited data

How the results depend on the processing

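Of 24 log2 changes (8 members, 3 comparisons), 18 kept their sign in every alternative run. Over 452 alternative values 415 kept direction and side of the threshold, 19 reversed, 12 lost the threshold (all Fgf2 with Olig3 against GFP) and 6 gained it. The cause was not tested.

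With Olig2 against GFP, 8 genes passed, and 176 did without a filter, 90 by DESeq2, 23 in the fit of only the pair, 5 without the Malat1-rich libraries and 41 without the few-gene libraries. With Olig3 against GFP, 32 passed, and 556 did without a filter, 502 by DESeq2, 78 by limma-voom, 0 in the fit of only the pair, 20 without the Malat1-rich libraries and 0 without the few-gene libraries. With Olig3 against Olig2, 6 passed, and 140 did without a filter, 82 by DESeq2, 1 by limma-voom, 2 in the fit of only the pair and 0 without the few-gene libraries. Leaving out 1 library gave 0 to 24, 0 to 505 and 2 to 160 genes in these comparisons.

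Of the members 0 passed with Olig2 against GFP and 1 without a filter (Fgf2, edgeR adjusted p = 0.0178). With Olig3 against GFP 1 passed, 3 did without a filter (Fgf2, Nudt6 and Fgf12), 2 by DESeq2 and 2 by limma-voom, and 0 in the fit of only the pair, without the Malat1-rich or without the few-gene libraries. Leaving out 1 library gave 0 to 2 members there and 0 to 0 in the other comparisons. The Nudt6 count per Fgf2 count ranged from 0.446 to 0.513 with GFP, 0.456 to 0.510 with Olig2 and 0.274 to 0.568 with Olig3 when 1 library was left out.

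The replicate number was also fitted as a block. Same-numbered libraries correlated in their deviations from the group means at -0.06 to 0.11, with 1 of 9 pairs over 0.1. Pairs with other numbers lay at -0.115 to 0.0747. Whether same-numbered libraries share more than a number cannot be told from these values. With the replicate block 10 genes passed with Olig2 against GFP, and 0 genes and 0 members with Olig3 against GFP (Fgf2 log2 -2.15, edgeR adjusted p = 0.0873).

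The difference of Fgfr1 between the factors changed sign with upper quartile factors (-0.022), limma-voom (-0.22) and the replicate block (-0.076), and ranged from -0.58 to 0.54 with 1 library left out. Fgf13 with Olig2 against GFP ranged from -0.30 to 0.14, above 0 only without GFP library 1. Fgf14 with Olig3 against GFP ranged from -6.10 to 0.39 and was 1.22 without the few-gene libraries. Fgf1 ranged from -1.29 to 0.35 with Olig2 against GFP (0.91 without the Malat1-rich libraries), from -1.51 to 0.37 with Olig3 against GFP and from -1.37 to 1.09 between the factors. The filter at 10 CPM left Fgf14 out. At 0 to 25 counts a group, Fgfr2 and Fgfr3 are limited by depth.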
